A study of Mus musculus with 258 samples.

Results

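The cells described here are 118 single cells sorted as Ngn3-low from E13.5 (embryonic day) mouse dorsal pancreas, out of 221 single cells and 258 samples in the series. They were divided by their own reads of Neurog3. A cell with 10 or more CPM (counts scaled to 1000000 reads in genes per cell) of Neurog3 is called reading here, and a cell under 10 CPM is called silent. There were 61 reading cells and 57 silent cells. The reading cells were 34 of 69 Jmjd3-deleted Ngn3-low cells, 49.3% (exact 95% binomial interval 37.02% to 61.6%), and 27 of 49 wild-type (WT) Ngn3-low cells, 55.1% (40.2% to 69.3%). Jmjd3-deleted cells carried Pdx1-Cre, a recombinase expressed in pancreatic progenitors, and 2 floxed Jmjd3 alleles (Jmjd3 fl/fl). The labels name no Cre in the WT cells, so the Cre and the deletion cannot be told apart. Ngn3-low and Ngn3-high are sorting gates on a green fluorescent reporter of Neurog3 (Ngn3-GFP), and the same gates gave 44 Jmjd3-deleted and 59 WT single Ngn3-high cells and the bulk libraries used below. The labels name no animal or litter. Each genotype is therefore 1 sample of cells, and values between reading and silent cells are descriptions with no test.

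Neurog3 encodes a basic helix-loop-helix transcription factor that starts the endocrine program of the pancreas. The bipotent trunk of the branching epithelium holds Sox9-expressing progenitors, and Notch signalling between them sets which cells raise Neurog3 and leave the cell cycle, while the tips of the branches give rise to acinar cells. Known targets of Neurog3, among them Neurod1, Insm1 and Pax4, carry the program on towards hormone-producing cells.

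In both genotypes, summed reading cells had more Amotl2, Rsad2, Cxcl12 and Cdkn1a RNA than summed silent cells, while the later endocrine factor Neurod1 was under 10 CPM in every Ngn3-low cell. Of 11 tip and acinar genes tested, 9 were lower in reading cells, against 0.758% of all tested genes, while none of 17 trunk and duct genes was called. A gene could be tested through its level in silent cells alone, so this count leans towards lower calls. Without the cells at 10 CPM or more of Cpa1, 2 tip and acinar genes were tested and 0 were called. All 22 tested genes for the start of DNA replication had mean log2 ratios over both genotypes below 0, of which 1 was called. The summed level of that list in reading and silent cells was 2366 and 5102 CPM in deleted cells. In WT cells it was 3355 and 4154 CPM, a smaller difference. Genes of mitosis were near the level of silent cells. Among Ngn3-low cells, the Notch ligand Dll1 and the endocrine factors Rfx6, Pax4 and Insm1 were highest in reading cells at 100 CPM or more of Neurog3, and in deleted cells they were lower at 10 to 100 CPM than in silent cells.

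The members were chosen by Neurog3 itself, so its values only describe them. Neurog3 ran from 10.5 CPM through a median of 106 CPM to 807 CPM in deleted reading cells and from 11.6 through 80.8 to 493 CPM in WT reading cells. Silent cells held up to 9.01 CPM in deleted cells and up to 9.26 CPM in WT cells, and 21 deleted and 11 WT silent cells had no Neurog3 read. The cells nearest the threshold held 10.5, 10.9 and 11.6 CPM inside it, on 7, 5 and 12 reads, and 9.26, 9.01 and 8.21 CPM outside it, on 6, 7 and 5 reads. A handful of reads thus decided the class of the nearest cells. In the Ngn3-high gate the median was 1439 CPM in deleted cells and 1214 CPM in WT cells.

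**Figure D1:**
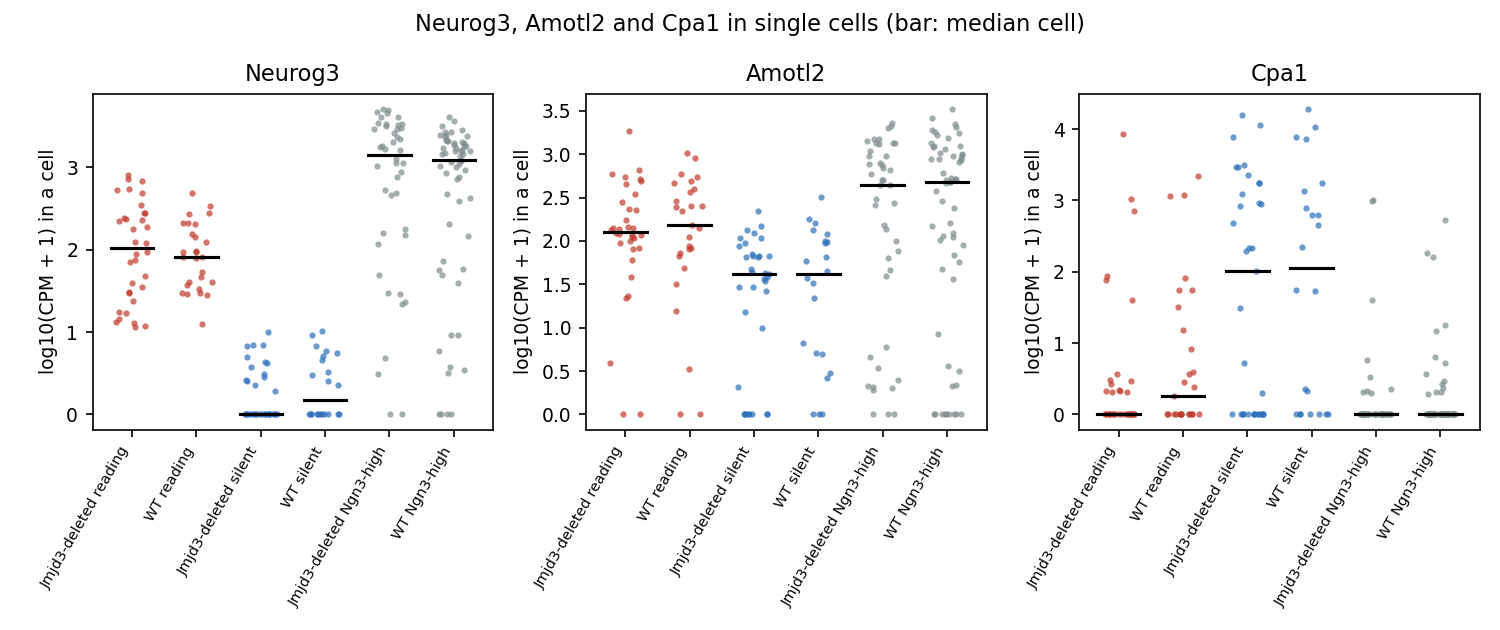
Each point is 1 cell, at log10(CPM + 1) of Neurog3, Amotl2 or Cpa1, for reading, silent and Ngn3-high cells of each genotype, and the bar is the median cell. The Neurog3 panel shows the split that chose the classes; Amotl2 medians were 127 and 151 CPM in deleted and WT reading cells, above 40.4 and 40.3 CPM in deleted and WT silent cells, with wide overlap of cells.

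Reads in genes per cell had medians of 743226 in deleted reading, 675475 in WT reading, 729128 in deleted silent and 582120 in WT silent cells. At an equal 300000 reads, the median number of genes was 8001 and 7651 in deleted and WT reading cells, and 8292 and 8323 in deleted and WT silent cells. Spike-in (ERCC) reads took a median of 4.22% and 3.55% in deleted and WT reading cells, and 3.35% and 2.82% in deleted and WT silent cells. Epcam, a marker of epithelium, was at 10 CPM or more in every Ngn3-low cell. Of markers that define other cell types, Ptprc of white blood cells and Col3a1 of mesenchyme reached 10 CPM in 0 cells, Pecam1 of endothelium in 2 and Sox10 of neural crest in 17. Kdm6b, the gene of Jmjd3, stood at 65.2 CPM in deleted and 136 CPM in WT reading cells, and at 46.3 CPM in deleted and 125 CPM in WT silent cells. Counts of a whole gene can include exons outside a deleted part, so the residual reads do not measure the deletion. No 2 Ngn3-low cells had identical counts (0 pairs).

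The neuroendocrine factor Neurod1 marked where the Ngn3-low cells stood. It reached 10 CPM in 0 of 61 reading cells, which allows a share of up to 4.92%, and in 0 of 57 silent cells, which allows up to 5.26%. At least 1 Neurod1 read was present in 9 reading and 9 silent cells, with at most 2 reads in a cell. In the Ngn3-high gate 89 of 103 cells, 86.4%, reached 10 CPM of Neurod1. Myt1, a zinc-finger factor, and Fev, a factor of the late endocrine progenitor, were likewise at 10 CPM in 0 of 61 reading cells.

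Summed over cells, 7656 genes other than Neurog3 reached 20 CPM and 10 CPM in 25% of cells in the reading or the silent class of both genotypes. A gene was counted as higher or lower where the log2 ratio of summed CPM, with 1 CPM added to each side, was at least 1 in size and of the same sign in both genotypes, and the share of cells moved the same way in both. By this rule 38 genes (0.496%) were higher and 58 genes (0.758%) were lower in reading cells. The median log2 ratio of all tested genes was 0.02. These counts describe the contrast that defined the cells and carry no error between samples. Title numbers, which the labels give to the cells with no stated meaning, allowed 8 within-number comparisons, 3 in deleted and 5 in WT cells. Of the 38 higher genes, 17 were higher in all 8, 34 in at least 7 and none in fewer than 6. Of the 58 lower genes, 11 were lower in all 8 and 22 in at least 7, and Sez6, Gcat and Mest were lower in only 4. These are the same cells that chose the genes. Agreement of sign between title numbers, here and below, is therefore largely fixed by that choice. The count of higher genes was 75 and that of lower genes 93 without the cells of title number 2, and 67 were higher without title number 1. Of the 38 and 58 genes, 17 and 23 were still called without title number 2, and 22 of the 38 without title number 1.

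**Figure D2:**
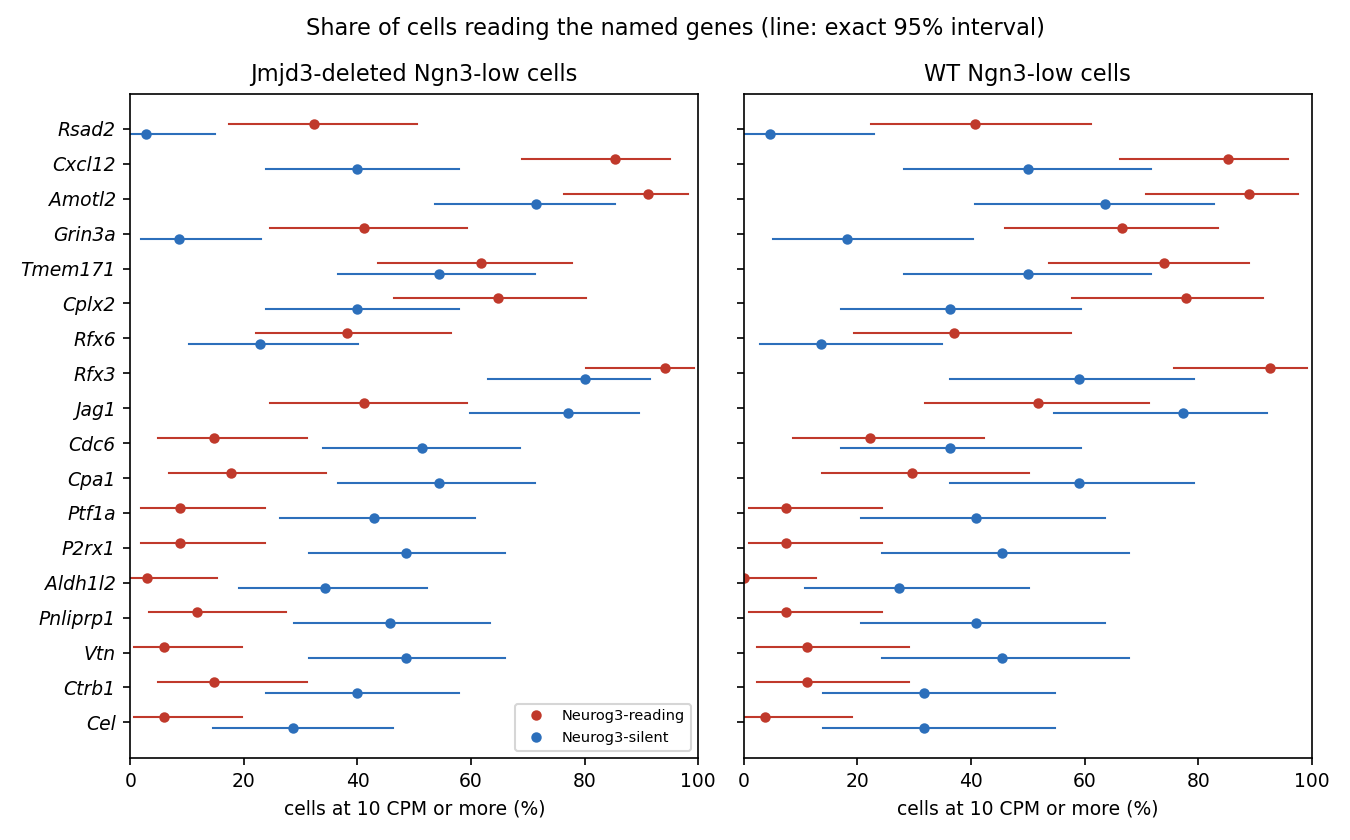
Percentage of cells at 10 CPM or more of each named gene among reading and silent cells, for Jmjd3-deleted cells on the left and WT cells on the right, with exact 95% binomial intervals. Cxcl12 was read in 85.3% and 85.2% of deleted and WT reading cells against 40% and 50% of deleted and WT silent cells, and Ptf1a in 8.82% and 7.41% against 42.9% and 40.9%.

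Of 24 listed early companions of Neurog3, 11 passed the filter, with a median log2 ratio of 0.30 and 8 above 0. Only 1 of the 11, Amotl2, was called, while 0.496% of all tested genes were called higher. Amotl2 encodes an angiomotin-family protein of cell junctions that binds the Hippo effector YAP. It had the largest ratio among the listed early companions of Neurog3 that passed the filter. Cells ran from 0 through a median of 127 to 1832 CPM in deleted reading cells and from 0 through 151 to 1025 CPM in WT reading cells. Silent cells ran from 0 through 40.4 to 222 CPM in deleted cells and from 0 through 40.3 to 322 CPM in WT cells. The classes overlapped, and only reading cells went above 322 CPM. The summed level was 227 CPM in deleted and 267 CPM in WT reading cells, against 50.01 CPM in deleted and 61.9 CPM in WT silent cells, a log2 ratio of 2.16 in deleted and 2.09 in WT cells. It was higher in reading cells within all 8 title-number comparisons, where the log2 ratio ran from 0.99 to 2.90.

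Rsad2, the gene of the antiviral enzyme viperin, had the largest ratio of all called genes. It was at 10 CPM or more in a minority of reading cells, 11 of 34 deleted and 11 of 27 WT cells, and in 1 of 35 deleted and 1 of 22 WT silent cells. The median was 0 CPM in all 4 sets of cells, and the highest cells held 223 CPM and 228 CPM in deleted and WT reading cells, against 49.3 CPM and 18.3 CPM in deleted and WT silent cells. The summed level was 29.5 CPM in deleted and 46.5 CPM in WT reading cells, against 1.57 CPM in deleted and 2.01 CPM in WT silent cells. Tlr3, a receptor for double-stranded RNA that was picked out after its values were seen, was at 28.2 CPM in deleted and 26.3 CPM in WT reading cells, and at 8.75 CPM in deleted and 9.53 CPM in WT silent cells.

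Cxcl12, a chemokine, was read in most reading cells. Deleted reading cells ran from 0 through a median of 231 to 1807 CPM and WT reading cells from 0 through 314 to 1300 CPM. Deleted silent cells ran from 0 through 1.10 to 256 CPM and WT silent cells from 0 through 9.67 to 1369 CPM. The WT classes overlapped over the whole range, and the highest WT silent cell stood above the highest WT reading cell. The log2 ratio was 3.27 in deleted and 1.35 in WT cells, and within WT title number 1 it was 0.02.

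Grin3a, Cplx2 and Tmem171 were also among the genes with the largest ratios. Grin3a, a subunit of NMDA-type glutamate receptors, was at 10 CPM in 41.2% of deleted and 66.7% of WT reading cells, against 8.57% of deleted and 18.2% of WT silent cells. Its log2 ratio was 2.77 in deleted and 1.24 in WT cells, and 2.08 and 0.39 without the cells at 10 CPM or more of Cpa1. Cplx2 encodes a complexin, a regulator of vesicle fusion. It was at 60.4 CPM in deleted and 88.4 CPM in WT reading cells, against 14.3 CPM in deleted and 30.1 CPM in WT silent cells. Tmem171, a membrane protein gene, had a mean log2 ratio of 1.84. Rph3al, an exocytosis regulator picked out after its values were seen, was at 75.7 CPM in deleted and 91.2 CPM in WT reading cells, against 36.1 CPM in deleted and 36.8 CPM in WT silent cells. Of the 24 listed genes of granules and exocytosis, only Vamp2 and Rab3d passed the filter on level and share, and neither was called. Chgb, a granule protein gene, was at 4.89 CPM in deleted and 10.9 CPM in WT reading cells, against 7193 CPM in deleted and 7895 CPM in WT Ngn3-high cells.

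Of the 20 listed endocrine transcription factors, 5 passed the filter, and Rfx3 and Rfx6 were called higher. Rfx3, a factor of ciliated and islet cells, ran from 0 through a median of 106 to 464 CPM in deleted reading cells and from 0 through 181 to 533 CPM in WT reading cells. It ran from 0 through 66.04 to 325 CPM in deleted silent cells and from 0 through 39.3 to 561 CPM in WT silent cells. The summed log2 ratio was 1.02 in deleted and 1.22 in WT cells. Rfx6, a factor required for islet development, was at 58.2 CPM in deleted and 52.2 CPM in WT reading cells, against 15.4 CPM in deleted and 20.7 CPM in WT silent cells. Its share of cells was 38.2% in deleted and 37.04% in WT reading cells, against 22.9% in deleted and 13.6% in WT silent cells. Nkx2-2, a homeobox factor of islet progenitors, had a mean log2 ratio of 0.56 and was not called. Pax4, which directs the beta and delta lineages, was at 10 CPM in 2 of 34 deleted and 6 of 27 WT reading cells, and in 1 of 35 deleted and 1 of 22 WT silent cells. Without the 46 cells at 10 CPM or more of Cpa1, 0 of the 5 factors were called.

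Cdkn1a encodes the cyclin-dependent kinase inhibitor p21. It ran from 0 through 147 to 1377 CPM in deleted reading cells and from 0 through 200 to 596 CPM in WT reading cells. It ran from 0 through 54.2 to 403 CPM in deleted silent cells and from 0 through 49.99 to 210 CPM in WT silent cells. The log2 ratio of sums was 1.82 in deleted and 1.92 in WT cells, and reading cells were higher in 8 of 8 title-number comparisons. By Neurog3 level it was at 89.9 CPM in deleted silent cells, 76.8 CPM at 10 to 100 CPM and 580.2 CPM at 100 CPM or more of Neurog3, so that deleted cells at 10 to 100 CPM were not above deleted silent cells. In WT cells it was at 69.5, 218 and 347 CPM in the same order. Cdkn1a was not called, because its share of cells was 85.3% in deleted reading and 88.6% in deleted silent cells. With no requirement on the share of cells, a setting added after the values were seen, 40 genes were higher and 66 lower. Of the 14 listed genes of cell cycle exit, 7 passed the filter, none was called in either direction, and their median log2 ratio was 0.42. Btg2, an antiproliferative gene, was at 75.5 CPM in deleted and 45.02 CPM in WT reading cells, against 22.5 CPM in deleted and 45.1 CPM in WT silent cells.

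The promoters of Rsad2, Amotl2 and Rfx6 are shown because these genes were higher with Neurog3 and have different courses with its level, and that of Neurog3 for comparison. Each run is 250 bases before to 50 bases after the start of a transcript, from RefSeq on GRCm38.p6, read 5′ to 3′ on the gene's strand. Capitals mark CAGATG, a form of the E-box that proneural basic helix-loop-helix factors bind, searched on both strands. They lie at chr12:26456403-26456702 on the minus strand for Rsad2, at chr9:102717554-102717853 on the plus strand for Amotl2, at chr10:51685268-51685567 on the plus strand for Rfx6, and at chr10:62132840-62133139 on the plus strand for Neurog3. The annotated Amotl2 and Rfx6 genes start at 102717091 and 51677760, so both windows lie inside the gene and not at its first base.
Rsad2: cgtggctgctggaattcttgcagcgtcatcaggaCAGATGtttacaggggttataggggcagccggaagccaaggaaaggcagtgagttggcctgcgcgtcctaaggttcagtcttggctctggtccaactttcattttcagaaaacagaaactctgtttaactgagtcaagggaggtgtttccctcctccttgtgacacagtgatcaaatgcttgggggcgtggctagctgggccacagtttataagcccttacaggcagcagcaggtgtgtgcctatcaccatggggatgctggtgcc
Amotl2: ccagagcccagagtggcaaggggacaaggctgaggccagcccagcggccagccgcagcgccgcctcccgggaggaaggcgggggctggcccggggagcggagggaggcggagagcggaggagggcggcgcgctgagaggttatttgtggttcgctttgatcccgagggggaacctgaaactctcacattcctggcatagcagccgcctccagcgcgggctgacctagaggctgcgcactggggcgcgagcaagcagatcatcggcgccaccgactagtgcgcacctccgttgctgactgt
Rfx6: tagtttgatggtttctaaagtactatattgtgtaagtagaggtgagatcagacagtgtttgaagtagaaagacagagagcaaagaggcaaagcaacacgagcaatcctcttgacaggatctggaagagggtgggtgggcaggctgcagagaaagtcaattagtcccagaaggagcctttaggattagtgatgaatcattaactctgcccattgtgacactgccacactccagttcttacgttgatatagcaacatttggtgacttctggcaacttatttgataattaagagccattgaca
Neurog3: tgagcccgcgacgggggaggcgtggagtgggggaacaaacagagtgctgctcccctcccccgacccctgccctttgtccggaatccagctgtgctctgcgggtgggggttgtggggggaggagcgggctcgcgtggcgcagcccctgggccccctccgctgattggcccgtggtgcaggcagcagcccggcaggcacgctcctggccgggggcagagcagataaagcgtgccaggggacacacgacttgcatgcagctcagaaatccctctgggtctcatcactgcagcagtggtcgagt
CAGATG was present in the Rsad2 window, 216 bases before the start, and in none of the other 3. Windows of Rfx3, Cdkn1a and Cxcl12, which are not shown, held 0. It was in 4 of 28 promoters of the higher genes (14.3%), those of Gpx2, Lekr1, Mmd2 and Rsad2, and in 5 of 42 promoters of the lower genes (11.9%). It was in 10.3% of the promoters of all tested genes that had an entry and in 17.2% of all 27025 promoters of that length. The wider E-box CANNTG, which includes every CAGATG, was in 53.6% of promoters of higher genes, 83.3% of promoters of lower genes, 61.1% of those of tested genes and 72.2% of all. A match of letters is a description and not a binding site.

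The reading cells were next divided at 100 CPM of Neurog3, into 17 deleted and 17 WT cells at 10 to 100 CPM and 17 deleted and 10 WT cells at 100 CPM or more. Of the 38 higher genes, 33 were above silent cells in both genotypes at 10 to 100 CPM, and 14 of these by a log2 ratio of at least 1. These cells are among the reading cells that chose the genes, so the count is largely fixed by that choice. In deleted cells Rsad2 was at 1.57 CPM in silent cells, 7.09 CPM at 10 to 100 CPM of Neurog3, 53.4 CPM at 100 CPM or more and 48.2 CPM in Ngn3-high cells. In WT cells it was at 2.01, 45.8, 47.8 and 61.6 CPM in the same order. Amotl2 was at 50.01, 93.0, 369 and 567 CPM in deleted cells and at 61.9, 219, 351 and 597 CPM in WT cells. Both genes were thus above the silent level in the cells with the least readable Neurog3, and Amotl2 was highest in the Ngn3-high gate.

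Cxcl12 had another course. It was at 36.1, 188, 535 and 4.96 CPM in deleted cells and at 156, 396, 403 and 82.5 CPM in WT cells, so that Ngn3-high cells were below all 3 sets of Ngn3-low cells. Of the 38 higher genes, 14 were lower in Ngn3-high than in reading cells by a log2 ratio of at least 1 in both genotypes, and 6 were higher by as much in both. The share of all tested genes that differed by as much was not counted. The 38 genes were chosen as high in these same reading cells, so the counts lean towards lower values in Ngn3-high cells. Besides Cxcl12, the genes that were lower included Tlr3, with a mean log2 ratio of -4.56, and Tinagl1, a gene of the basement membrane, with -4.02. Those that were higher included Rfx6 with 3.25, Rph3al with 2.69 and Cplx2 with 1.85. Hes1, a Notch-driven repressor of Neurog3, had a log2 ratio of only -0.30 in reading over silent cells and of -6.13 in Ngn3-high over reading cells.

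Dll1, a Notch ligand, and the endocrine factors were highest in the cells with more Neurog3. In deleted cells Dll1 was at 30.01 CPM in silent cells, 1.45 CPM at 10 to 100 CPM of Neurog3, 166 CPM at 100 CPM or more and 63.2 CPM in the Ngn3-high gate. In WT cells it was at 40.4, 46.7, 98.5 and 116 CPM. Rfx6 was at 15.4, 3.74, 116 and 486 CPM in deleted cells and at 20.7, 31.6, 87.8 and 582 CPM in WT cells. Cbfa2t3, a corepressor gene, was at 1.23, 0, 17.8 and 114 CPM in deleted cells, where 0 reads in the 17 cells at 10 to 100 CPM allow a level of up to 0.229 CPM. In WT cells it was at 4.17, 5.595, 8.37 and 114 CPM. For these genes the deleted cells at 10 to 100 CPM were below the deleted silent cells, and the WT cells at 10 to 100 CPM were above the WT silent cells. The same held for Pax4, at 0.229 CPM in deleted and 25.5 CPM in WT cells at 10 to 100 CPM of Neurog3, and for Insm1, at 0.0763 CPM in deleted and 4.34 CPM in WT cells. Few cells set these sums, since 1 of 35 deleted silent cells reached 10 CPM of Pax4 and 2 of 35 reached it for Insm1. The median Neurog3 of those cells was 28.7 CPM in deleted and 39.9 CPM in WT cells. This difference between genotypes was not tested, since each genotype is 1 sample, and WT cells carry title numbers 3 and 4 that the deleted Ngn3-low cells do not.

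**Figure D3:**
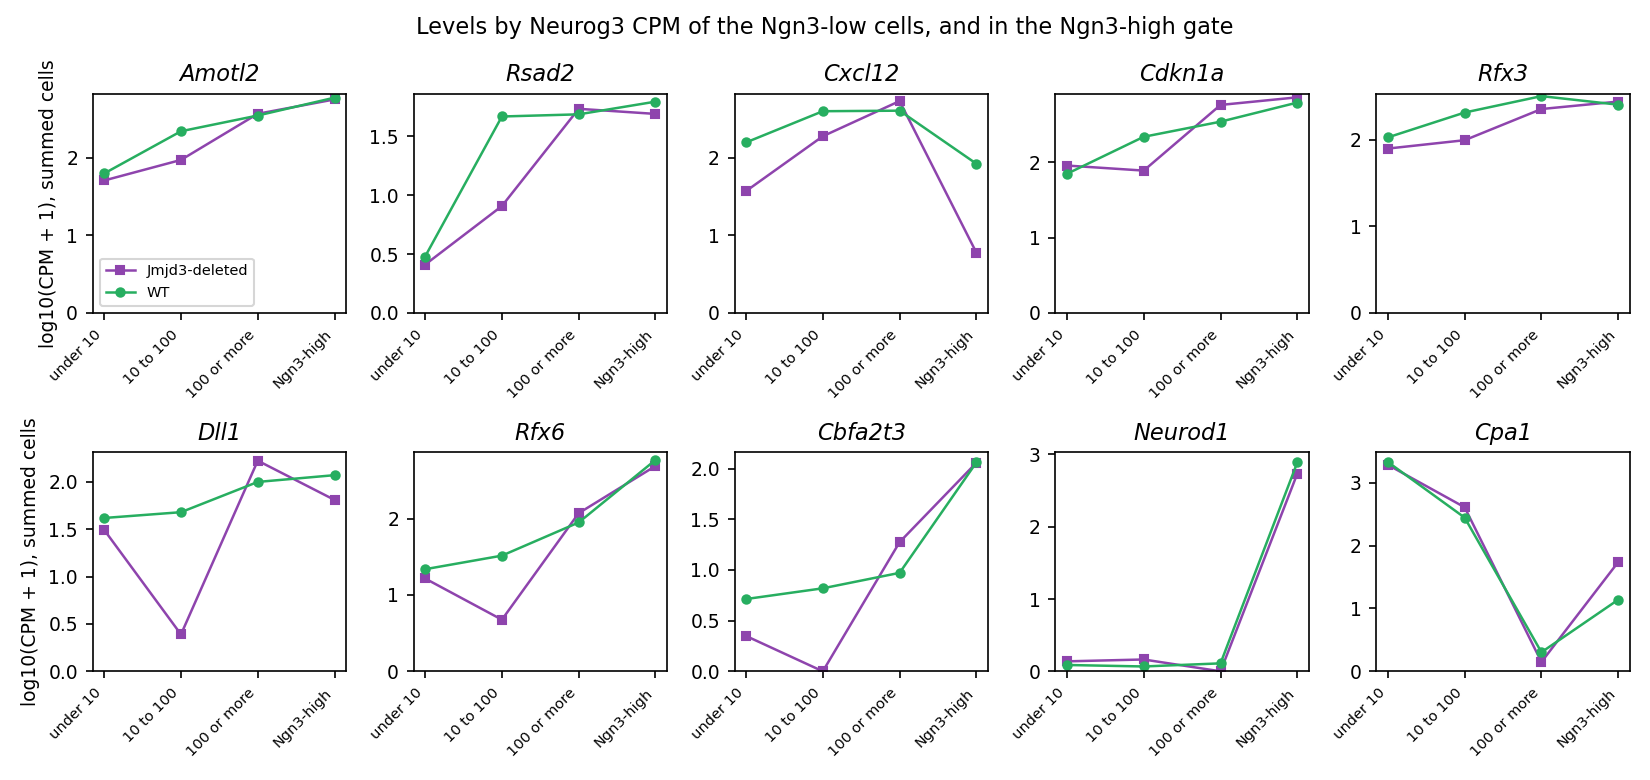
Summed level, as log10(CPM + 1), of 10 genes in silent cells, in reading cells at 10 to 100 CPM and at 100 CPM or more of Neurog3, and in Ngn3-high cells, for each genotype, with 1 value per set of cells and no error between samples. Rsad2 and Amotl2 were above the silent level at 10 to 100 CPM, Rfx6 and Cbfa2t3 were highest in the Ngn3-high gate, and Neurod1 was near 0 in all 3 sets of Ngn3-low cells.

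Of 19 listed tip and acinar genes found, 11 passed the filter, and 9 of these were called lower, with a median log2 ratio of -3.39. Over all tested genes 0.758% were called lower. A gene such as Ptf1a passed the filter through the silent class, where it is high, so the count is partly fixed by the filter. Without the cells of title number 2 the count was 3, and how many of the listed genes passed the filter there was not counted. Within title number 5 the direction was the other way for Cpa1, with a log2 ratio of 2.56 in deleted and 3.98 in WT cells, and in deleted cells for Ctrb1 (2.97) and Cel (3.61). There, 1 of 8 deleted reading cells held 8593 CPM of Cpa1 beside 10.9 CPM of Neurog3. Cpa1, a digestive carboxypeptidase that marks the multipotent tip, was at 10 CPM or more in 14 of 61 reading cells (22.95%) and 32 of 57 silent cells (56.1%). Cells ran from 0 through a median of 0 to 8593 CPM in deleted reading cells and from 0 through 0.799 to 2181 CPM in WT reading cells. They ran from 0 through 101 to 15782 CPM in deleted silent cells and from 0 through 139 to 19273 CPM in WT silent cells. All 4 sets thus included cells with no Cpa1 and cells with a great deal. At 100 CPM or more of Neurog3 it was under 10 CPM in all 17 deleted and all 10 WT cells. Ptf1a, the acinar master factor, was at 10 CPM in 5 of 61 reading cells and 24 of 57 silent cells. Its summed level was 2.68 CPM in deleted and 1.43 CPM in WT reading cells, against 35.7 CPM in deleted and 35.6 CPM in WT silent cells. The lipase gene Cel and the chymotrypsinogen gene Ctrb1 had the largest negative mean log2 ratios, -4.79 and -4.50.

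Read the other way, 28 of 44 deleted and 19 of 28 WT Ngn3-low cells under 10 CPM of Cpa1 were reading, 63.6% and 67.9%. Among cells at 10 CPM or more of Cpa1, 6 of 25 deleted and 8 of 21 WT cells were reading, 24% and 38.1%. The exact 95% intervals were 47.8% to 77.6% and 47.6% to 84.1% without Cpa1, and 9.36% to 45.1% and 18.1% to 61.6% with it, for deleted and WT cells in that order. The intervals cover counting error only, and the share was lower in cells with Cpa1 in both genotypes.

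Since cells with Cpa1 were more frequent in the silent class, the contrast was repeated without the 46 cells at 10 CPM or more of Cpa1. The cells that remain are among those that chose the genes, so kept signs are largely fixed by that choice. Of the 38 higher genes, 37 kept their sign in both genotypes, 11 kept a log2 ratio of at least 1 in both, and 9 were still called. In all, 42 genes besides Neurog3 were called higher, of 7614 genes tested. The mean log2 ratio was 4.24 for Rsad2, 2.06 for Cxcl12, 1.50 for Amotl2 and 2.1 for Cdkn1a. Dll1 had a mean log2 ratio of 3.14 there, against 1.04 in all cells. Of the 58 lower genes, 34 kept their sign in both genotypes and 8 were still called, while 32 of the 7614 genes were called lower in all. Of the tip and acinar genes 2 passed the filter and 0 were called. Only 16 deleted and 9 WT silent cells remain in this comparison.

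Of 18 listed trunk and duct genes 17 passed the filter, and none was called. Each of the 17 had a mean log2 ratio above 0, with a median of 0.39, but without the cells at 10 CPM or more of Cpa1 9 of the 17 were above 0 and the median was 0.02. Spp1, a secreted phosphoprotein of duct cells, ran from 858 through a median of 5373 to 16548 CPM in deleted reading cells and from 210 through 6598 to 14991 CPM in WT reading cells. It ran from 2.04 through 2509 to 12139 CPM in deleted silent cells and from 1.28 through 3379 to 11859 CPM in WT silent cells. Its log2 ratio was 0.71 in deleted and 1.08 in WT cells. Sox9, the trunk progenitor factor, was in every cell of both classes and had a mean log2 ratio of 0.21. In Ngn3-high over reading cells, Spp1 had a mean log2 ratio of -4.00 and Sox9 of -3.42.

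Of 24 listed genes that start DNA replication 22 passed the filter. Each of these had a mean log2 ratio below 0, with a median of -0.71, while 52.1% of all tested genes were above 0. Of the 22, 1 was called, Cdc6, which loads the replicative helicase onto origins. Cdc6 was at 8.20 CPM in deleted and 35.2 CPM in WT reading cells, against 101 CPM in deleted and 89.2 CPM in WT silent cells. Mcm10 had a mean log2 ratio of -1.60, the cyclin gene Ccne2 of -1.56 and Rrm2, a subunit of ribonucleotide reductase, of -1.46. These means came mostly from deleted cells. Mcm10 had -2.34 in deleted and -0.86 in WT cells, Ccne2 -2.98 and -0.13, and Rrm2 -2.53 and -0.38. Hells, also on the list, had -1.47 in deleted and 0.23 in WT cells. The summed level of the list was 2366 CPM in deleted and 3355 CPM in WT reading cells, against 5102 CPM in deleted and 4154 CPM in WT silent cells. The 24 listed genes of mitosis had a median of 0.10, with 16 above 0 and none called. Mki67, a proliferation marker, was at 10 CPM in 41.2% of deleted and 40.7% of WT reading cells, against 57.1% of deleted and 54.5% of WT silent cells. Without the 57 cells at 10 CPM or more of Mki67, 13 of the replication genes both passed the filter and had a mean log2 ratio below 0. How many passed the filter there was not counted, so 13 is not a share of the 22. In that setting 94 genes were called higher.

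Myc, a growth factor-induced transcription factor that is also on the list of tip and acinar genes, was at 7.49 CPM in deleted and 11.8 CPM in WT reading cells, against 121 CPM in deleted and 116 CPM in WT silent cells. Its share of cells was 14.7% in deleted and 14.8% in WT reading cells, against 45.7% in deleted and 50% in WT silent cells. It was lower in 8 of 8 title-number comparisons, and the mean log2 ratio was -2.56 without the Cpa1 cells. Another 3 of the 58 lower genes are named here after their values were seen. Ccnd2, the gene of cyclin D2, was at 45.8 CPM in deleted and 84.7 CPM in WT reading cells, against 219 CPM in deleted and 275 CPM in WT silent cells. Nolc1, a nucleolar protein gene, was at 53.5 CPM in deleted and 44.2 CPM in WT reading cells, against 112 CPM in deleted and 118 CPM in WT silent cells. Slc16a1, a monocarboxylate transporter gene, was at 9.61 CPM in deleted and 14.7 CPM in WT reading cells, against 59.3 CPM in deleted and 42.1 CPM in WT silent cells. These 3 genes and Myc were lower in all 8 title-number comparisons.

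Of 20 listed Notch pathway genes, 9 passed the filter and 1 was called, the ligand gene Jag1, which was lower. Jag1 ran from 0 through a median of 6.08 to 274 CPM in deleted reading cells and from 0 through 11.7 to 125 CPM in WT reading cells. It ran from 0 through 54.7 to 310 CPM in deleted silent cells and from 0 through 54.3 to 327 CPM in WT silent cells. The log2 ratio was -1.49 in deleted and -1.99 in WT cells, and it was lower in 8 of 8 title-number comparisons. Without the cells at 10 CPM or more of Cpa1 its call was lost, with a log2 ratio of -0.45 in deleted and -1.20 in WT cells. Nrarp, a feedback inhibitor of Notch, had a mean log2 ratio of -0.93. Of the receptor genes that passed the filter, Notch1 had 0.41, Notch2 0.32 and Notch3 -0.38. Notch1 had 0.79 in deleted and 0.02 in WT cells, Notch2 0.57 and 0.08, and Notch3 0.53 and -1.29. None of the 12 tested genes of H3K27 methylation was called, with a median of -0.11.

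**Figure D4:**
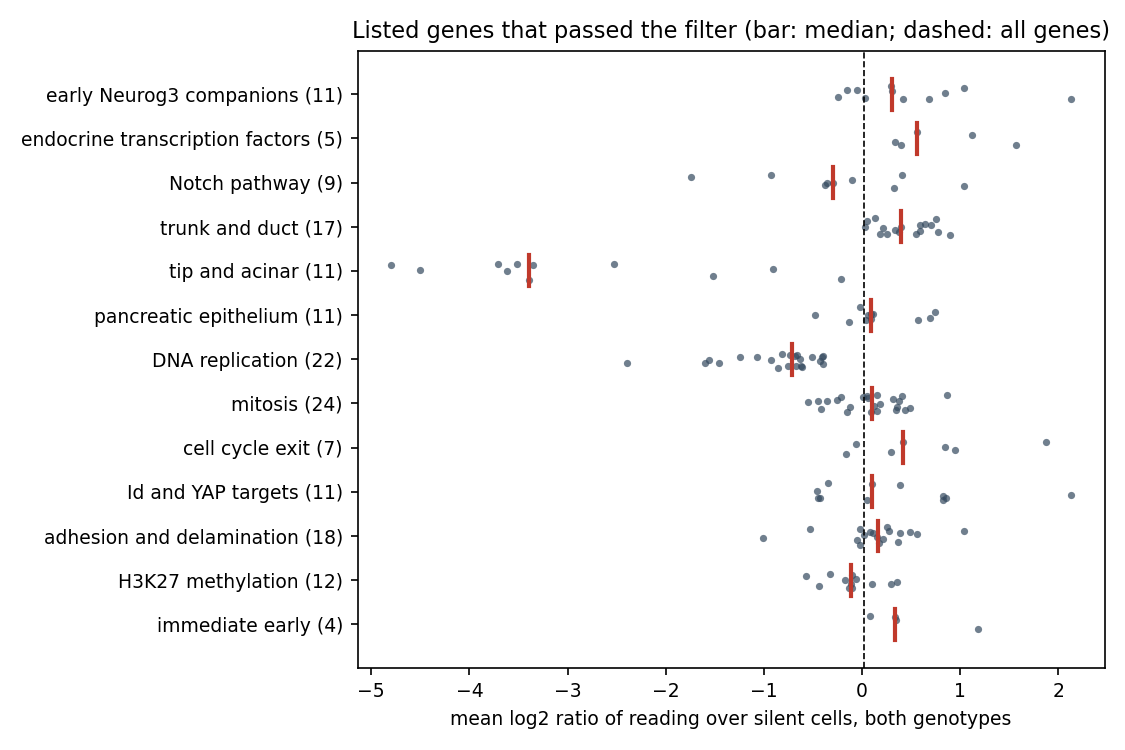
Mean log2 ratio over both genotypes of reading over silent cells for each listed gene that passed the filter, by list, with the number of such genes in brackets, the list median as a bar and the median of all tested genes as a dashed line. Tip and acinar genes had a median of -3.39 and DNA replication genes of -0.71, with all 22 points of that list below 0.

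The bulk libraries give a measure that did not choose the cells. They hold 2 libraries of Ngn3-high and 2 of Ngn3-low cells of E13.5 pancreas, with 11957415 to 17760214 reads in genes, and edgeR's quasi-likelihood test was fitted with 2 libraries of Ins1-positive cells of E17.5 included, which share the estimate of spread and enter no comparison here. Of 15684 genes, 4349 (27.7%) rose and 4729 (30.2%) fell in Ngn3-high libraries at a Benjamini-Hochberg adjusted p under 0.05. Among the 38 higher genes, 16 (42.1%) rose, 12 (31.6%) fell and the other 10 missed the threshold, and the median log2 fold change was 0.22. Their share of rises stood above the background share and their share of falls close to it. That background covers all genes tested in bulk, while the called genes also had to pass the single-cell filter on level and share. The shares among genes that passed that filter were not computed. Among the 58 lower genes, 34 (58.6%) fell, 12 (20.7%) rose and the other 12 missed the threshold, and the median was -2.03. Without Ngn3-high replicate 1, 22 of the 58 fell. The median over all genes tested was -0.01. In bulk, fewer cells of a type and less RNA per cell cannot be told apart.

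Among the higher genes, Rfx6 was at 421 and 404 CPM in Ngn3-high libraries against 49.6 and 52.1 CPM in Ngn3-low libraries. It rose by a log2 fold change of 3.02 (SE 0.12, edgeR adjusted p = 4.8e-07). Rsad2 rose by 0.55 (SE 0.13, edgeR adjusted p = 0.0064), a call that was lost without Ngn3-low replicate 2. Amotl2 was at 574 and 429 CPM in Ngn3-high against 419 and 411 CPM in Ngn3-low libraries and did not pass (log2 fold change 0.27, SE 0.15, edgeR adjusted p = 0.16), but it passed without Ngn3-high replicate 2. Cxcl12 was at 19.95 and 18.98 CPM in Ngn3-high against 231 and 233 CPM in Ngn3-low libraries, a fall (log2 fold change -3.57, SE 0.12, edgeR adjusted p = 3.2e-07). Cxcl12 was thus higher in reading cells and lower in the Ngn3-high libraries, as it was in the single Ngn3-high cells.

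Among the lower genes, Myc was at 4.72 and 2.996 CPM in Ngn3-high against 46.9 and 35.7 CPM in Ngn3-low libraries and fell (log2 fold change -3.40, SE 0.24, edgeR adjusted p = 7.0e-06). Jag1 fell as well (log2 fold change -2.55, SE 0.23, edgeR adjusted p = 2.8e-05), and so did Cdc6 (-3.25, SE 0.19, edgeR adjusted p = 2.7e-06). Ptf1a and Cpa1 fell with adjusted p of 0.027 and 0.037 in edgeR. The call of Cpa1 was lost when any 1 of the 4 compared libraries was left out, and that of Ptf1a without Ngn3-low replicate 2 or either Ngn3-high library. Kirrel2, a nephrin-family adhesion gene also named after its values were seen, went the other way. It was at 11.8 CPM in deleted and 20.3 CPM in WT reading cells, against 104 CPM in deleted and 119 CPM in WT silent cells, and it rose in bulk Ngn3-high libraries (log2 fold change 2.69, SE 0.27, edgeR adjusted p = 5.4e-05). Markers of other cell types moved with the bulk gates. The 12 white blood cell markers summed to 17.4 and 9.16 CPM in Ngn3-high against 3347 and 2724 CPM in Ngn3-low libraries, and the 11 endothelium markers to 15.1 and 9.65 CPM against 419 and 451 CPM. In single Ngn3-low cells the white blood cell markers summed to a median of 0 CPM (0 to 98.7) in reading and 1.54 CPM (0 to 186) in silent cells. Their part in the bulk changes was not tested.

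**Figure D5:**
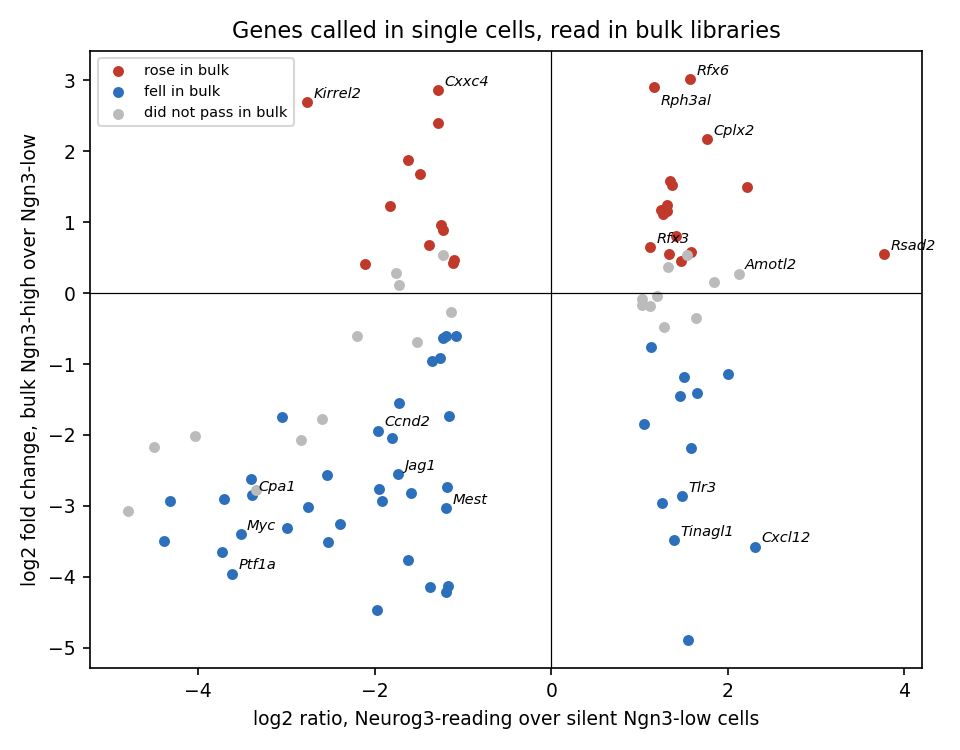
Each point is 1 of the 38 higher or 58 lower genes, at its mean log2 ratio of reading over silent single cells (x) and its log2 fold change of Ngn3-high over Ngn3-low bulk libraries (y), coloured by its call in edgeR at an adjusted p under 0.05. Of the higher genes 16 rose and 12 fell in bulk, with Rfx6 at 3.02 and Cxcl12 at -3.57, and of the lower genes 34 fell and 12 rose.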

How the data were processed

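Single cells were made into libraries with Smart-seq2 and ERCC spike-in RNA, per the labels' protocols, which copies whole transcripts without molecular identifiers. Tools named in the submitters' processing notes are HTSeq 0.6.0, TopHat2 2.1.0, DESeq 1.20.0 and Bowtie2, with the build mm10. Annotation and strand setting were not stated, so reads of a gene and of its antisense partner cannot be separated, and near-identical family members such as protease genes may share reads. Per gene, the authors deposited raw read counts, as whole numbers without normalisation. The authors' RPKM tables and the 31 chromatin immunoprecipitation samples were not used here. The tables list 40824 genes and 92 ERCC rows, and 0 sample columns were left unmapped.

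CPM was computed per cell or over summed cells without ERCC rows, in Python 3.11.15 with numpy 2.4.6, pandas 2.3.3 and scipy 1.17.1. No cell was filtered out, since every cell of the groups held at least 380478 reads in genes, and doublets were not called. Shares of cells have exact Clopper-Pearson 95% intervals and a limit of 3 counts for 0, and these cover counting error only, as reads are not independent molecules. At 0 reads a class total allows up to 0.112 to 0.223 CPM. Bulk counts were tested with edgeR 4.0.16 in R 4.3.3 (expression filter, trimmed-mean factors, quasi-likelihood test over 6 libraries, Benjamini-Hochberg adjustment), and DESeq2 1.42.0 was an alternative. Labels name no animals for the bulk libraries, so p-values measure the spread between libraries, which may be technical. The scripts were tested on simulated data.

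The cells, the 23 gene lists and the rule for named genes were chosen with earlier results of these data known. The rule names 25 fixed genes, the 8 largest ratios in each direction and up to 3 called members per list, and genes outside it are said to be picked after their values were seen. Some genes that the rule names are not reported here. Gene names are those of the deposited tables.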

Additional observations from a re-analysis of the deposited data

Results flagged for a closer look

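Among named genes, 5 had log2 ratios of reading over silent cells of opposite sign in the genotypes, and none of these differences was tested. Insm1 had -0.21 in Jmjd3-deleted and 1.61 in WT cells, a WT minus deleted difference of 1.82, and Chga, a granule protein gene, had -0.13 in deleted and 0.89 in WT cells, a WT minus deleted difference of 1.02. Neither passed the filter on level and share. Btg2 had 1.70 in Jmjd3-deleted and -0.0028 in WT cells, so that the WT ratio minus the deleted ratio was -1.70. Sox4, a gene of early endocrine and many other progenitors, had 0.23 in deleted and -0.54 in WT cells, a WT minus deleted difference of -0.776. Mki67 had -0.44 in deleted and 0.13 in WT cells, a WT minus deleted difference of 0.579.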

How the results depend on the processing

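The 38 higher genes all stayed above 0 in mean log2 ratio in each of the 19 alternatives to the single-cell comparison. The alternatives use the same cells that chose these genes, so this sign is largely fixed by that choice. Of the 58 lower genes, 47 stayed below 0 in mean log2 ratio without cells at 10 CPM or more of Cpa1. Without cells at 10 CPM or more of Cpa1, Ptf1a or Myc, 34 did, and without title number 2, 57 did. In the other alternatives all 58 stayed below 0. How many genes passed the thresholds moved. With a Neurog3 threshold of 1 CPM 106 genes were higher. With the mean of log2(CPM + 1) over cells 112 were higher and 195 lower, with the genotypes pooled 122 and 121, and with ERCC scaling, which shifted all genes by -0.24 in deleted and -0.14 in WT cells, 20 were higher and 82 lower. Leaving out the cells at 10 CPM or more of Mki67 gave 94 higher genes and 13 replication genes that passed the filter and were below 0. Leaving out 18 cells with markers of other cell types gave 65 higher. Without title number 1 there were 67 higher, and without title number 2 there were 75 higher, 93 lower and 3 lower tip and acinar genes.

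Without cells at 10 CPM or more of Cpa1 there were 32 lower genes, 0 lower tip and acinar genes and 9 trunk and duct genes above 0. The mean log2 ratio then turned to 0.30 for Cpa1, 0.53 for Ctrb1, 0.42 for Vtn and 0.21 for Pnliprp1. Without cells at 10 CPM or more of Cpa1, Ptf1a or Myc, a setting chosen after seeing the data, the counts were 31, 0 and 6, and the ratio turned to 0.22 for Cpa1, 0.56 for Ctrb1, 0.44 for Vtn and 0.20 for Pnliprp1. These settings remove the cells that carry the genes counted.

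In bulk, leaving out 1 library at a time gave 3267 to 4511 genes that rose and 3885 to 5047 that fell. Of the higher genes 13 to 17 rose and 12 to 13 fell, and of the lower genes 22 to 42 fell and 9 to 13 rose. The log2 fold change of Tmem171, which did not pass, turned to -0.0054 without Ngn3-high replicate 1. With a replicate block 4532 genes rose and 4835 fell, and 16 of the higher genes rose and 34 of the lower genes fell. Same-numbered libraries correlated by 0.091 to 0.111 across genes in their replicate differences. With 2 libraries a group, this cannot show whether same-numbered libraries share more than a number. Depth limits genes under a few CPM, where 1 read in a cell decides a value, and 17 or fewer cells stand behind each Neurog3 tier.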

Other observations

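Genes of other groups stood as follows in reading over silent cells, with no test. The helix-loop-helix inhibitors Id1, Id2 and Id3 had mean log2 ratios of -0.43, -0.45 and -0.46, and the immediate early gene Fos had 1.19, of which none was called. Dcx, a microtubule-binding protein of migrating neurons, had 1.04, and Cdh2, the gene of N-cadherin, had -1.01. Besides Amotl2, the genes linked with YAP that passed the filter went both ways. Lats2 had 0.85, Wwtr1 0.83, Cyr61 0.82, Tead3 0.39, Yap1 itself 0.10, Amotl1 0.05 and Tead1 -0.34. Wwtr1 had 0.11 in deleted and 1.55 in WT cells, and Cyr61 had 1.44 in deleted and 0.20 in WT cells. Of those that did not pass, Ankrd1 had 0.69, Tead4 0.09, Ctgf -0.48 and Axl -0.57.

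Red blood cell markers were higher in silent than in reading WT cells, with summed levels of 94.2 CPM in deleted and 45.6 CPM in WT reading cells, against 51.3 CPM in deleted and 225 CPM in WT silent cells. The direction was opposite in the genotypes, and 1 or a few cells can set such a sum: the highest silent cell held 3066 CPM of these markers and the highest reading cell 743 CPM.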
